A study of Mus musculus with 9 samples.

Results

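The genes described here build, sense, store and export cholesterol, here in microglia, the macrophages that live in brain tissue. A list of 31 genes was given by name and role, and 28 of them had a probe set annotated to that gene alone, out of 19938 such genes on the array. For a gene with several probe sets the probe set with the highest mean stood for it. Levels of Acat2, Nr1h2 and Soat1 were not analysed here. Of the 28 genes, 24 reached the level filter, a mean of at least 5.31 on the log2 scale (the middle of all probe sets), and were tested, while Idi1, Lss, Nr1h3 and Stard4 lay below it.

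Cells were sorted as CD45+ CD11b+ microglia from the brains of 9 mice aged 8.5 months, and RNA from each mouse was measured on 1 array. Every mouse carried the 5XFAD transgenes, mutant human genes that lead to amyloid plaques, and every mouse was deficient in mouse TREM2, a lipid-binding receptor of microglia. In its place 3 mice expressed the R47H variant of human TREM2 (R47H), 3 expressed its common variant (CV), and 3 expressed no human TREM2 (KO). Each genotype held 1 female (mouse 1) and 2 males (mice 2 and 3), so mouse number and sex cannot be told apart. The sources used here do not give what drives the human gene in these mice, or whether littermates or several founder lines were used. The comparisons concern sterol genes in microglia with and without a human TREM2, and in those with R47H against the common variant.

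Cholesterol is built from acetyl units through mevalonate and farnesyl units to squalene, and squalene is then closed and trimmed to cholesterol by enzymes of the endoplasmic reticulum. When sterol in that membrane is low, Scap carries the transcription factor made by Srebf2 to the Golgi, where it is cut free and turns on the enzymes of synthesis. Insig proteins hold Scap back when sterol is plentiful, and Insig1 is itself a target of the factor. When sterol is high, oxysterols and late precursors activate the LXR receptors (Nr1h2, Nr1h3), which turn on the exporters Abca1 and Abcg1 and the ubiquitin ligase Mylip, which removes the LDL receptor. Phagocytes that take up myelin and dying cells handle much cholesterol in this way, and Ch25h, Cyp27a1 and Soat1 turn it into oxysterols or esters.

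Promoters of 6 of these genes are shown because the enzymes and Insig1 share a regulator, while Ch25h, the gene with the largest difference below, is controlled by inflammatory signals. Each line holds the 250 bases before the RefSeq start (GRCm38.p6), written 5′ to 3′ on the strand of the gene, with CCAAT, the box bound by NF-Y, and the sterol element TCACNCCAC in capitals on either strand (ATTGG is CCAAT on the other strand).
Hmgcs1 (chr13:119690101-119690350, + strand): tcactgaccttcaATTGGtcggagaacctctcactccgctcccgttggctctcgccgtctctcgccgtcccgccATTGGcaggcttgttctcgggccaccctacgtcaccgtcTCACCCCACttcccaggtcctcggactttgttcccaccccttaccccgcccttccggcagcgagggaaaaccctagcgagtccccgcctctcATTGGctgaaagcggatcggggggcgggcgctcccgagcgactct
Idi1 (chr13:8885356-8885605, + strand): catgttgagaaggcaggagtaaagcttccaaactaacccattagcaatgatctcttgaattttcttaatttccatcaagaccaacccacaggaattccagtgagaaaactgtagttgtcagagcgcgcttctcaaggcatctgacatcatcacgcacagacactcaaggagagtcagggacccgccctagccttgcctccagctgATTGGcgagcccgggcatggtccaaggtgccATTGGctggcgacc
Cyp51 (chr5:4104698-4104947, - strand): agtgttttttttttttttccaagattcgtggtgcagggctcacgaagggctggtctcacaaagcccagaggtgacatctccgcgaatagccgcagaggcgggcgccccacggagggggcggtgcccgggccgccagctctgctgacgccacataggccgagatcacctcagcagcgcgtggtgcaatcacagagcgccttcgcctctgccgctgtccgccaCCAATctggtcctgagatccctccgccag
Msmo1 (chr8:64733579-64733828, - strand): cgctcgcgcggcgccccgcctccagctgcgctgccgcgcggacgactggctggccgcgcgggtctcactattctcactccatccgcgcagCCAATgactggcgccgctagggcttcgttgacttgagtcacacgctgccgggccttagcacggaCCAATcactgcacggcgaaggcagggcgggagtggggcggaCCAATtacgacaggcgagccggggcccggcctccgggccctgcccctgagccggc
Insig1 (chr5:28071162-28071411, + strand): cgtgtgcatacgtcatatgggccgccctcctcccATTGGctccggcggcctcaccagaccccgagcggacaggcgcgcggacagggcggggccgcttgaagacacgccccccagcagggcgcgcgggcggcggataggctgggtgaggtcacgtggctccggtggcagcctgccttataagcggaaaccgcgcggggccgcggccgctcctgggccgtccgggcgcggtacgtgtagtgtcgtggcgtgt
Ch25h (chr19:34475149-34475398, - strand): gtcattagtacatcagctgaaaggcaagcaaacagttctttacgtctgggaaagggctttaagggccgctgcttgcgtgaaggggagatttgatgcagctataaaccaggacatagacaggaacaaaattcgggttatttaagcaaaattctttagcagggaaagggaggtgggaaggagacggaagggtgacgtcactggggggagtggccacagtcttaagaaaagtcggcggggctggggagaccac

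RefSeq promoters were matched for 26 of the 31 genes. CCAAT stood in 20 of the 26 (76.9%), among them 14 of 15 synthesis enzymes and 6 of 11 other genes, and in 37.5% of all 27025 genes. Msmo1 and Hmgcs1 held 3 copies each, Idi1 held 2, Cyp51 and Insig1 held 1 each, and Ch25h held none. GGGCGG, the box bound by Sp1, stood in 21 of the 26 (80.8%) and in 35.4% of all genes, and it too was not in the Ch25h window. TCACNCCAC stood in 1 of the 26, Hmgcs1, starting 137 bases before the start, and in 1.22% of all genes. Its shorter core CACNCCAC, added after the data were seen, stood in Acat2, Hmgcs1 and Insig1 (11.5%) and in 6.05% of all genes. The LXR element, searched as an exact direct repeat of AGGTCA with any 4 bases between, stood in 0 of the 26 and in 0.0148% of all genes. The core counts include every TCACNCCAC, and these windows are short, so a missing match says nothing about sites elsewhere.

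The arrays carried 35556 probe sets with medians between 5.28 and 5.35, and correlated with each other at 0.981 to 0.990. The mean log2 value of 11 microglia markers was 11.11 to 11.15 in R47H, 10.98 to 11.01 in CV and 11.08 to 11.19 in KO. The mouse Trem2 probe set (10445781) averaged 7.28 ± 0.03 in R47H, 7.15 ± 0.09 in CV and 7.16 ± 0.05 in KO (SD, n = 3 each), and whether it sees the deleted part or the human gene is not known here, so it checks no label. The mean over 13 neutrophil markers was 5.93, 6.43 and 6.88 in R47H mice 1, 2 and 3, 7.82, 8.70 and 8.43 in CV, and 5.35, 5.74 and 8.64 in KO. Mouse 3 of KO thus lay with the CV mice. The mean over 7 monocyte markers ran from 5.68 to 5.97 in R47H and from 6.95 to 7.42 in CV, and was 5.68, 5.73 and 6.95 in KO. The 6 that reached the level filter were all above 0 in CV minus KO, but unevenly, from 0.12 (Plac8) to 2.20 (Fn1). Plac8 read 6.57 in CV mice 1 and 3 and in KO mice 1 and 2. Ccr2, at 0.28, overlapped between CV and KO mouse 2. The mean over 9 oligodendrocyte markers ran from 6.79 to 7.14 in R47H, 5.64 to 5.94 in CV and 5.64 to 6.34 in KO, and that over 9 astrocyte markers from 5.84 to 6.15 in R47H, 5.15 to 5.35 in CV and 5.21 to 5.65 in KO. R47H was the highest group for the means of both glial lists, with no overlap. Single astrocyte markers did not all follow the mean. Of the 4 that reached the level filter 3 were above 0 in R47H minus KO. Slc1a3 ran the other way, at 7.96 in R47H and 8.07 in KO. Array values have no true zero, and 4 of the 13 neutrophil, 1 of 7 monocyte, 2 of 9 oligodendrocyte and 5 of 9 astrocyte markers lay below the array median. So did 8 of 8 neuron, 4 of 6 endothelial and 4 of 5 lymphocyte markers, while the mean over 7 markers of border-associated macrophages ran from 7.76 to 7.97 in R47H, 7.53 to 7.77 in CV and 7.57 to 7.66 in KO. In sorted bulk RNA a change in the mix of cells and a change in RNA per cell cannot be told apart.

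**Figure D1:**
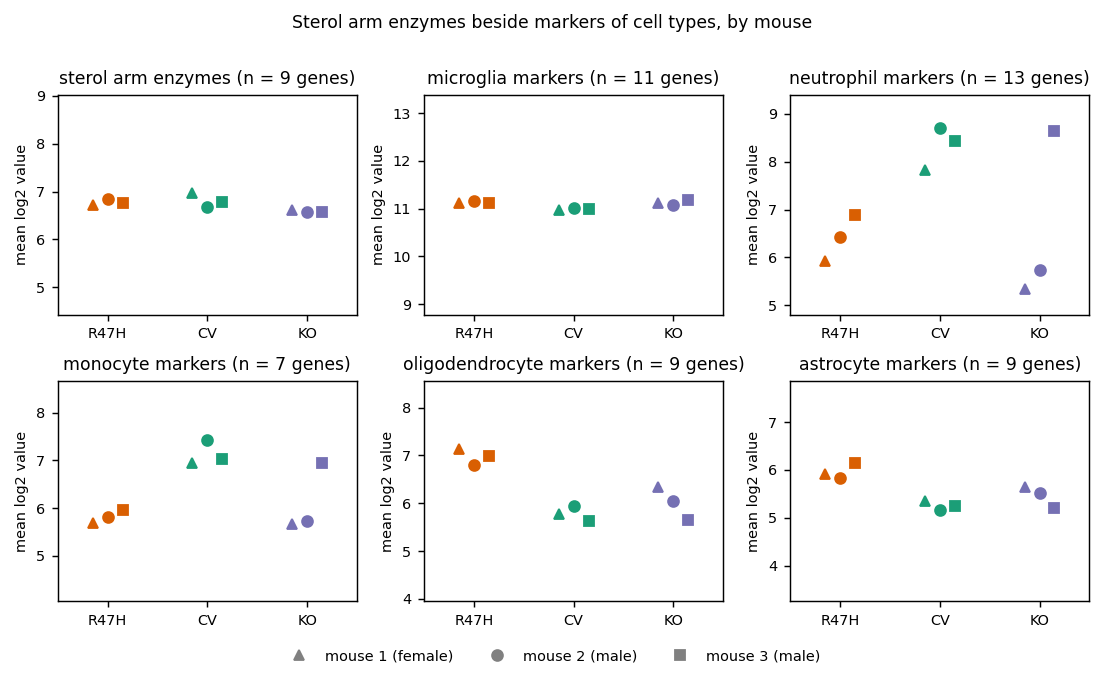
Mean log2 value (vertical axis, the same span in every panel) of the sterol arm enzymes and of markers of 5 cell types, with 1 point per mouse and genotypes R47H, CV and KO from left to right. KO mouse 3 lies with the CV mice for neutrophil markers at 8.64, and the R47H mice lie highest for oligodendrocyte and astrocyte markers.

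Among the tested sterol genes 1 of 24, Ch25h, was higher in CV than in KO after correction over all genes (limma, Benjamini-Hochberg adjusted p under 0.05), and 0 were lower. Of all 10795 genes 1.21% were called in that comparison, 0.954% higher and 0.259% lower. In R47H against KO 0 of 24 were called by limma, against 0.0834% of all genes (0.0648% higher and 0.0185% lower). In R47H against CV 0 of 24 were called, against 0.797% (0.38% higher and 0.417% lower). The test for any difference among the genotypes (limma F-test) again called 1 of 24, Ch25h (adjusted p = 0.022), against 1.32% of all genes, a call lost without KO mouse 1 or 2, CV mouse 1 or any R47H mouse. At an unadjusted p under 0.05 this limma test held for 7 of 24, Ch25h, Insig1, Msmo1, Cyp51, Srebf2, Dhcr7 and Abcg1, against 12% of all genes.

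At an unadjusted p under 0.05 (limma) 6 genes were higher in CV than in KO and 2 lower, against 6.23% and 6.95% of all genes (13.2% in all). The 6 were Ch25h, Insig1, Srebf2, Msmo1, Cyp51 and Dhcr7, and the 2 were Mvk and Abcg1. For R47H against KO 5 were higher, Ch25h, Msmo1, Dhcr7, Hmgcs1 and Sc5d, and 0 lower, against 3.53% and 2.15% of all genes (5.68% in all). For R47H against CV 0 were higher and 2 lower, Insig1 and Cyp51, against 7.13% and 5.24% of all genes (12.4% in all). Counts of groups that did not overlap had a different balance for R47H against KO. CV lay wholly above KO for 6 genes, the same 6 as above, and wholly below for 2, Mvk and Scap, against 5.9% and 8.05% of all genes (14% in all). R47H lay wholly above KO for 4 genes, Ch25h, Msmo1, Dhcr7 and Srebf2, and below for 3, Mvk, Mylip and Abcg1, against 3.84% and 3.27% (7.11% in all).

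Differences were above 0 for 17 of 24 genes in CV minus KO, 17 in R47H minus KO and 9 in R47H minus CV, against 45%, 49.6% and 53.4% of all genes. The median difference over the 24 genes was 0.07 for CV minus KO, 0.12 for R47H minus KO and -0.02 for R47H minus CV, on the log2 scale, beside medians of -0.02, -0.001 and 0.01 over all tested genes. Without CV mouse 1 the first was 0.03, and the last had no settled sign, at 0.04 without R47H mouse 1 and -0.07 without CV mouse 2. The comparisons share arrays and are given side by side. The means of the neutrophil and monocyte lists also differed between CV and KO mice 1 and 2, as given above. The part of these cells in the sterol gene differences was not tested.

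**Figure D2:**
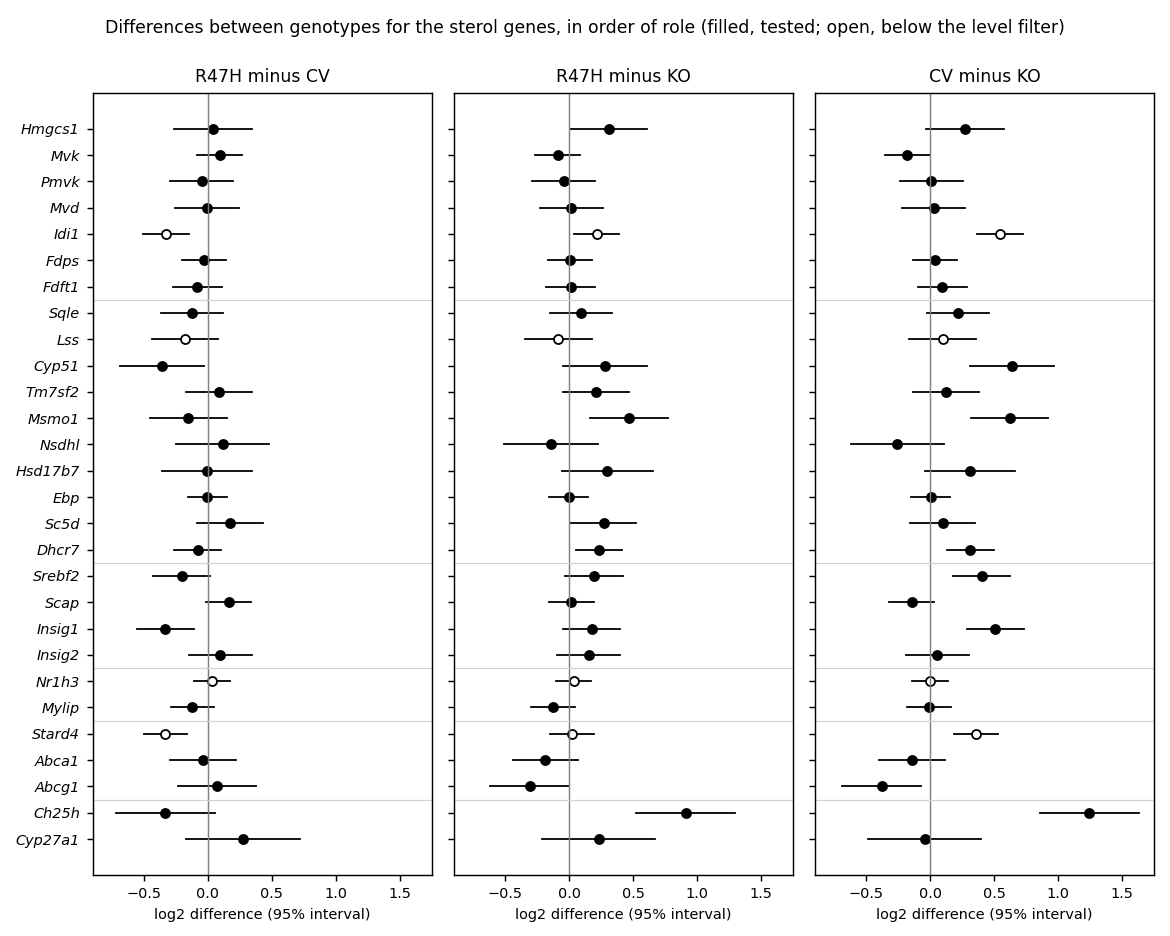
Log2 differences (horizontal axis) with 95% intervals from limma for the 28 sterol genes in order of role, for R47H minus CV, R47H minus KO and CV minus KO. Filled points were tested and open points lie below the level filter, and Ch25h at 1.24 in CV minus KO lies farthest from 0.

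Ch25h (probe set 10467136), which hydroxylates the side chain of cholesterol to an oxysterol that blocks Srebf2 processing and activates LXR, rose with the common variant. It read 7.45, 6.78 and 6.81 in R47H mice 1, 2 and 3, 7.66, 6.87 and 7.49 in CV, and 6.49, 5.64 and 6.16 in KO. Every R47H and every CV mouse lay above every KO mouse, and the R47H and CV mice overlapped. CV stood 2.37-fold above KO (log2 difference 1.24 ± 0.17 SE, limma adjusted p = 0.0106). R47H stood 1.88-fold above KO (0.91 ± 0.17, 95% interval 0.52 to 1.30), which was not called (limma adjusted p = 0.136). R47H minus CV was -0.33 with an interval of -0.72 to 0.06 (limma adjusted p = 0.488). Within each genotype mouse 1, the female, had the highest value. The call for CV was lost without CV mouse 1 (1.29, limma adjusted p = 0.057), without KO mouse 1 (1.25, adjusted p = 0.0637), in the model with no sex term (adjusted p = 0.0971), and with CV and KO fitted alone (adjusted p = 0.0924).

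Cyp27a1, a mitochondrial hydroxylase that also makes an oxysterol, showed no call in any comparison. It averaged 7.54 ± 0.20 in R47H, 7.26 ± 0.35 in CV and 7.31 ± 0.25 in KO (SD, n = 3 each). Its difference was 0.23 for R47H minus KO (95% interval -0.21 to 0.67) and -0.04 for CV minus KO (-0.49 to 0.40), so a shift of the size seen for Ch25h in CV lies outside both intervals.

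Of the 4 sensing genes 3 had positive differences in CV minus KO, and none passed the test. Insig1 (10520362) read 8.41, 8.58 and 8.33 in R47H mice 1, 2 and 3, 8.83, 8.66 and 8.83 in CV, and 8.17, 8.22 and 8.41 in KO. All CV mice lay above all R47H and all KO mice, while R47H and KO overlapped. The difference was 0.51 ± 0.10 for CV minus KO (1.42-fold, limma adjusted p = 0.051), 0.18 ± 0.10 for R47H minus KO (adjusted p = 0.907) and -0.33 ± 0.10 for R47H minus CV (adjusted p = 0.226). Insig1 was just short of the threshold in CV, and the alternatives moved it both ways. It was called without KO mouse 3 (0.58, limma adjusted p = 0.0402), with the filter at the 75th percentile (adjusted p = 0.0349) and with the trend and robust options (adjusted p = 0.0381). It lay farther from a call without CV mouse 1 or KO mouse 1 (0.45 and limma adjusted p = 0.213 in each). The same held without KO mouse 2 (0.47, adjusted p = 0.173) and with CV and KO fitted alone (adjusted p = 0.137).

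Srebf2 (10425695), which encodes the factor that drives synthesis, read 7.55, 7.56 and 7.64 in R47H mice 1, 2 and 3, 8.04, 7.66 and 7.67 in CV, and 7.37, 7.42 and 7.38 in KO. The 3 genotypes did not overlap, with KO lowest, R47H between and CV highest. The difference was 0.40 ± 0.10 for CV minus KO (limma adjusted p = 0.113), 0.20 ± 0.10 for R47H minus KO (adjusted p = 0.907) and -0.21 ± 0.10 for R47H minus CV (adjusted p = 0.447). CV mouse 1 stood apart from the other CV mice, and without it CV minus KO was 0.26 (limma adjusted p = 0.258).

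Scap, the escort of that factor, ran the other way in CV and missed the threshold. It read 8.25 ± 0.05 in R47H, 8.09 ± 0.10 in CV and 8.23 ± 0.07 in KO (SD, n = 3 each), with CV minus KO at -0.15 ± 0.08 (limma adjusted p = 0.471). Insig2, the second Insig protein, is known for regulation that does not follow Srebf2 as Insig1 does. It averaged 7.03 ± 0.12 in R47H, 6.93 ± 0.18 in CV and 6.87 ± 0.21 in KO, and CV minus KO was 0.05 (95% interval -0.19 to 0.30).

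The mevalonate arm runs from the condensation of acetyl units to squalene, and 0 of its 6 tested enzymes were called in any comparison. The median difference was 0.03 for CV minus KO and 0.01 for R47H minus KO. Hmgcs1, the synthase that makes the substrate for mevalonate, read 6.59, 6.84 and 6.57 in R47H mice 1, 2 and 3, 6.75, 6.56 and 6.56 in CV, and 6.64, 6.05 and 6.38 in KO. The groups overlapped through KO mouse 1. R47H minus KO was 0.31 ± 0.13 (limma adjusted p = 0.863) and CV minus KO 0.27 ± 0.13 (adjusted p = 0.434), and R47H minus KO was 0.18 without KO mouse 2 and 0.19 without R47H mouse 2. Mvk, mevalonate kinase, stood at 6.15, 6.03 and 6.10 in R47H, 6.13, 6.04 and 5.83 in CV, and 6.20, 6.17 and 6.18 in KO, so every KO mouse lay above the rest. Its CV minus KO difference was -0.18 ± 0.08 (limma adjusted p = 0.37), opposite in sign to Hmgcs1, and -0.11 without CV mouse 3. Pmvk and Mvd, the next enzymes, and Fdps, which makes farnesyl units, differed by -0.04 to 0.04 in CV and R47H against KO.

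Idi1, the isomerase that readies the isoprene unit, lay below the level filter in all groups. It read 4.77, 4.74 and 4.64 in R47H mice 1, 2 and 3, 4.96, 5.07 and 5.11 in CV, and 4.46, 4.43 and 4.62 in KO. In this probe set (10482762) the 3 genotypes did not overlap, with CV highest and KO lowest. When all 19938 genes were tested without the filter, Idi1 was called in CV minus KO (0.54 ± 0.08, 1.46-fold, limma adjusted p = 0.0271), while R47H minus KO was 0.21 ± 0.08 (adjusted p = 0.815) and R47H minus CV was -0.33 ± 0.08 (adjusted p = 0.192). That call was lost without any 1 CV mouse, KO mouse 1 or 2, or R47H mouse 2 (limma adjusted p from 0.063 to 0.153). A second Idi1 probe set (10403413) gave 0.45, 0.20 and -0.25 in the same order of comparisons. There R47H overlapped both other groups, while CV still lay above KO. R47H mouse 2 (4.57) lay above CV mouse 1 (4.46), and KO mouse 1 (4.40) above R47H mouse 3 (4.33).

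Fdft1, which joins farnesyl units to squalene, depended on the probe set. The probe set with the higher mean (10420730) averaged 7.34 ± 0.12 in R47H, 7.43 ± 0.15 in CV and 7.33 ± 0.10 in KO (SD, n = 3 each), with CV minus KO at 0.09 ± 0.08. The other (10412909) read 6.08, 6.08 and 6.20 in R47H, 6.67, 6.29 and 6.23 in CV, and 5.91, 5.48 and 6.02 in KO. Its KO mice lay below all others, and CV minus KO was 0.59 ± 0.14 (limma adjusted p = 0.121 over 11898 probe sets). Which of the probe sets reads the main transcript was not tested.

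**Figure D3:**
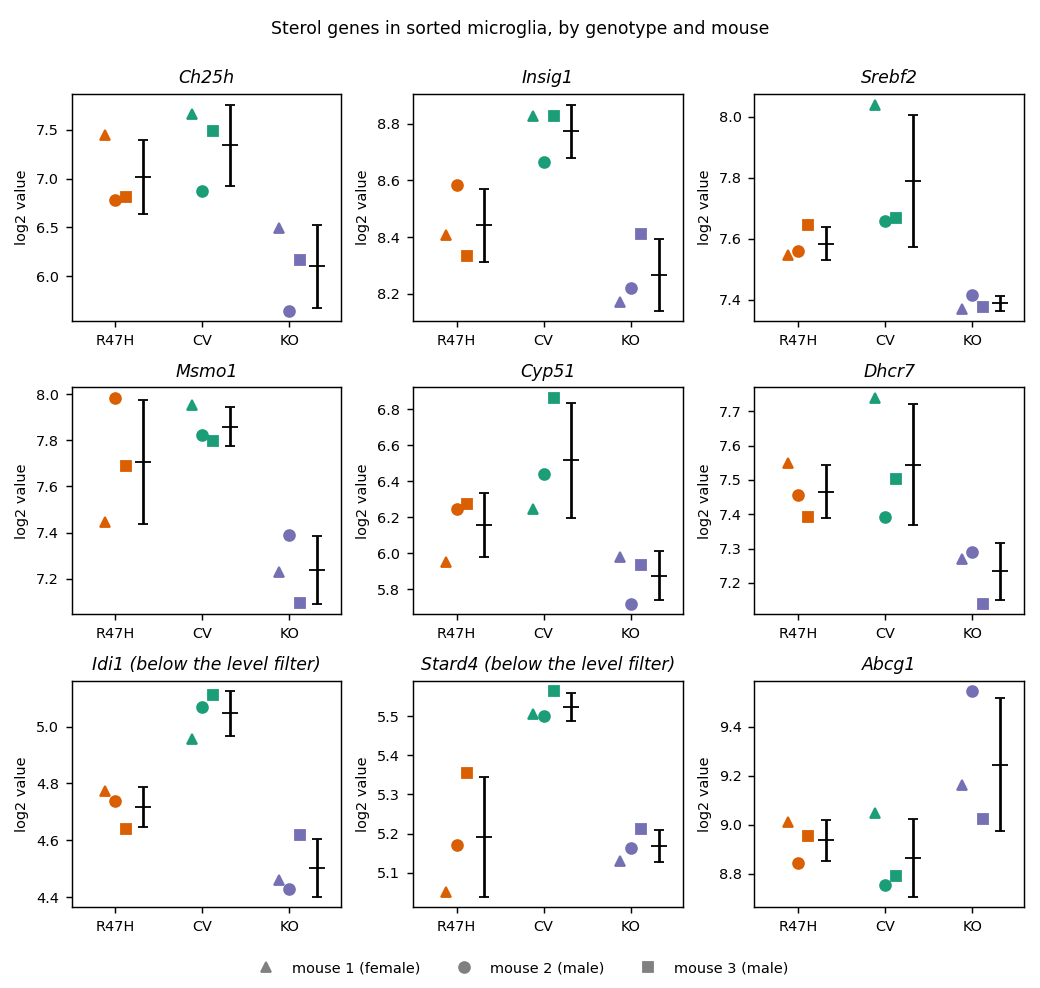
Log2 values (vertical axis) of 9 sterol genes in each mouse, with genotypes R47H, CV and KO from left to right, mouse number as the symbol, and the mean with SD over 3 mice beside each group. CV mice lie above KO mice without overlap in every panel but Abcg1, where KO mouse 2 at 9.55 is the highest. The panels do not stand for the whole list. They hold every tested gene with CV wholly above KO, which were 6 of 24, against 5.9% of all genes.

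The sterol arm, from squalene to cholesterol, held Cyp51 and Msmo1, the tested synthesis enzymes with the largest CV minus KO differences. In the mevalonate arm the second Fdft1 probe set and Idi1, below the filter, came close, at 0.59 and 0.54. Of the 9 tested sterol arm enzymes 8 were above 0 in CV minus KO (median 0.21) and 7 in R47H minus KO (median 0.23). The shares of all genes above 0 were 45.0% and 49.6%, and 0 of the 9 enzymes were called. Msmo1 (10578916), which removes methyl groups from the sterol ring, read 7.45, 7.98 and 7.69 in R47H mice 1, 2 and 3, 7.95, 7.82 and 7.80 in CV, and 7.23, 7.39 and 7.10 in KO. All R47H and all CV mice lay above all KO mice. The difference was 0.62 ± 0.13 for CV minus KO (1.54-fold, limma adjusted p = 0.0756) and 0.47 ± 0.13 for R47H minus KO (adjusted p = 0.488). Over the 17 alternatives the limma adjusted p for CV minus KO ran from 0.0471 to 0.258. The call came only without R47H mouse 2, with the difference unmoved at 0.62. Without CV mouse 1 the difference was 0.50 (limma adjusted p = 0.258), and without KO mouse 1 it was 0.66 (adjusted p = 0.205).

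Cyp51 (10527920), the cytochrome that removes a methyl group from lanosterol, read 5.95, 6.24 and 6.27 in R47H mice 1, 2 and 3, 6.24, 6.44 and 6.86 in CV, and 5.98, 5.72 and 5.93 in KO. CV lay above KO without overlap, and R47H overlapped both. The difference was 0.64 ± 0.15 for CV minus KO (limma adjusted p = 0.0913), 0.28 ± 0.15 for R47H minus KO (adjusted p = 0.907) and -0.36 ± 0.15 for R47H minus CV (adjusted p = 0.368), the last -0.20 without CV mouse 3.

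Dhcr7, which carries out the last step of the pathway, read 7.55, 7.46 and 7.39 in R47H mice 1, 2 and 3, 7.74, 7.39 and 7.50 in CV, and 7.27, 7.29 and 7.14 in KO. Both TREM2 groups lay above KO without overlap. The difference was 0.31 ± 0.08 for CV minus KO (limma adjusted p = 0.128) and 0.23 ± 0.08 for R47H minus KO (adjusted p = 0.686). Sc5d, the desaturase just before it, read 7.13, 7.49 and 7.25 in R47H, 7.13, 7.13 and 7.10 in CV, and 7.10, 6.83 and 7.13 in KO. R47H minus KO was 0.27 ± 0.11 (limma adjusted p = 0.863) and CV minus KO 0.10 ± 0.11 (adjusted p = 0.764), and R47H minus KO was 0.16 without KO mouse 2 and 0.17 without R47H mouse 2. The R47H mice also had the highest means of the oligodendrocyte and astrocyte lists, and the part of these cells in the R47H differences was not tested.

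The other enzymes of the arm did not reach an unadjusted p of 0.05 in any comparison. Ebp, the sterol isomerase, lay between 7.57 and 7.74 in all 9 mice, with intervals of -0.15 to 0.15 for CV minus KO and -0.16 to 0.15 for R47H minus KO. Sqle, the oxygenase that opens the arm, averaged 5.82 ± 0.10 in R47H, 5.95 ± 0.19 in CV and 5.73 ± 0.13 in KO (SD, n = 3 each). Hsd17b7, a sterol ketone reductase, read 6.19, 5.88 and 6.12 in R47H, 6.61, 5.73 and 5.88 in CV, and 5.88, 5.54 and 5.88 in KO, so its CV mean of 6.07 rested on mouse 1. Its difference was 0.30 for R47H minus KO (95% interval -0.05 to 0.65) and 0.31 for CV minus KO (-0.05 to 0.66). Nsdhl, a sterol dehydrogenase on the X chromosome, likewise read 7.16 in CV mouse 1 and 6.43 and 6.64 in CV mice 2 and 3. It averaged 6.86 ± 0.11 in R47H and 6.75 ± 0.37 in CV, while KO ran from 6.92 to 7.11. Tm7sf2, a sterol reductase, averaged 5.95 ± 0.08 in R47H, 5.86 ± 0.21 in CV and 5.74 ± 0.15 in KO, with R47H minus KO at 0.21 (-0.05 to 0.47). Lss, which closes the ring, lay below the filter at 5.00 ± 0.26 in R47H, 5.18 ± 0.10 in CV and 5.08 ± 0.07 in KO.

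Both exporters had negative differences from KO, opposite in sign to most synthesis enzymes, and neither was called. Abcg1 (10443730), which loads cholesterol onto lipoprotein particles, read 9.01, 8.85 and 8.95 in R47H mice 1, 2 and 3, 9.05, 8.76 and 8.79 in CV, and 9.16, 9.55 and 9.02 in KO. All R47H mice lay below all KO mice, and CV mouse 1 overlapped KO. The difference was -0.38 ± 0.13 for CV minus KO (limma adjusted p = 0.271) and -0.31 ± 0.13 for R47H minus KO (adjusted p = 0.87). KO mouse 2 was the highest of the 9 mice, and without it CV minus KO was -0.20 (limma adjusted p = 0.435). Abca1, which passes cholesterol to lipid-poor apolipoproteins, averaged 9.80 ± 0.14 in R47H, 9.84 ± 0.14 in CV and 9.99 ± 0.25 in KO (SD, n = 3 each), and its difference was -0.18 for R47H minus KO and -0.15 for CV minus KO, both with intervals that include 0. Nr1h3, an LXR receptor, lay below the filter at 4.87 ± 0.02 in R47H, 4.84 ± 0.08 in CV and 4.84 ± 0.03 in KO. Mylip was among the brightest probe sets of the set, at 10.30 ± 0.07 in R47H, 10.42 ± 0.04 in CV and 10.42 ± 0.11 in KO, and every R47H mouse lay below every CV and KO mouse. Its difference was -0.12 for R47H minus CV (limma adjusted p = 0.578) and -0.13 for R47H minus KO (adjusted p = 0.908).

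Stard4, a carrier that moves cholesterol between membranes and is induced by Srebf2, lay just below the level filter. It read 5.05, 5.17 and 5.35 in R47H mice 1, 2 and 3, 5.51, 5.50 and 5.56 in CV, and 5.13, 5.16 and 5.21 in KO. All CV mice lay above the other 6 mice, and R47H overlapped KO. In the fit without the filter the difference was 0.36 ± 0.07 for CV minus KO (limma adjusted p = 0.125), 0.02 ± 0.07 for R47H minus KO (adjusted p = 0.984) and -0.33 ± 0.07 for R47H minus CV (adjusted p = 0.167).

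The mice of a genotype also differed among themselves. CV mouse 1, the female, had the highest value of all 9 mice for 9 of the 24 tested genes and the lowest for 0, against 9.19% and 8.28% of all tested genes. For synthesis enzymes it was highest for 7 of 15. The females of the other genotypes, KO mouse 1 and R47H mouse 1, were each highest for 1 of the 24 and lowest for 3. Over all genes those shares were 15.2% and 8.92% for KO mouse 1, and 11.4% and 12% for R47H mouse 1. KO mouse 2 was lowest for 7 of the 24 and highest for 5, against 16.3% and 14.5% of all genes. The mean log2 value over the 9 tested sterol arm enzymes was 6.71, 6.85 and 6.77 in R47H mice 1, 2 and 3, 6.97, 6.68 and 6.79 in CV, and 6.61, 6.56 and 6.58 in KO. The KO mice were lowest and close together, while the CV mice spanned 6.68 to 6.97. For the exporters Abca1 and Abcg1 the mean was 9.48, 9.27 and 9.36 in R47H mice 1, 2 and 3, 9.50, 9.22 and 9.33 in CV, and 9.64, 9.84 and 9.36 in KO. KO mouse 3, the KO mouse with neutrophil markers at the CV level, lay here inside the CV range and apart from KO mice 1 and 2, and the part of those markers was not tested.

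**Figure D4:**
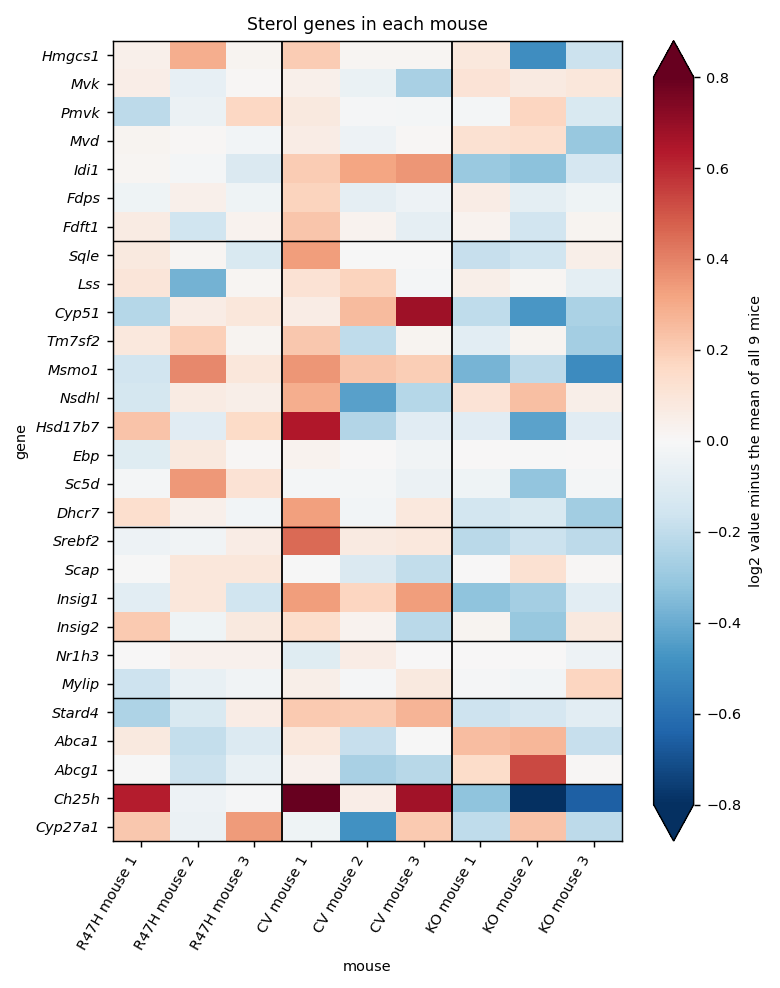
Log2 value minus the mean of all 9 mice (colour scale, clipped at 0.8) for the 28 sterol genes in order of role, with R47H, CV and KO mice from left to right. Ch25h shows the widest range, and CV mouse 1 is the highest of the 9 mice for 9 of the 24 tested genes.

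Between R47H and the common variant no sterol gene passed the test. At an unadjusted p under 0.05 (limma) Insig1 and Cyp51 were lower in R47H, as given above. The R47H and CV mice did not overlap for 3 of 24 genes, Insig1, Srebf2 and Mylip, all lower in R47H, against 6.17% of all genes lower and 8.74% higher (14.9% in all). Below the filter Stard4 and the Idi1 probe set with the higher mean also lay lower in every R47H mouse than in any CV mouse. In the second Idi1 probe set R47H and CV overlapped. For Msmo1 the difference was -0.15 (95% interval -0.45 to 0.15), for Dhcr7 -0.08 (-0.26 to 0.10) and for Hmgcs1 0.04 (-0.26 to 0.34). These intervals include 0 and reach to between -0.26 and -0.45.

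Other genes of the pathway were taken from a list of 39, of which 30 had a probe set and 26 were tested. In CV against KO 0 were called higher and 1 lower, against 0.954% and 0.259% of all genes. The 1 was Gramd1b, a sterol carrier at contacts between the plasma membrane and the endoplasmic reticulum. It read 8.14, 7.68 and 7.76 in R47H mice 1, 2 and 3, 7.82, 7.13 and 7.61 in CV, and 8.54, 8.28 and 7.92 in KO, and fell by 0.73 in CV (limma adjusted p = 0.0415). The CV mice lay below the KO mice without overlap. The call was kept without KO mouse 3 or CV mouse 3 and lost without any of the other 7 mice (limma adjusted p from 0.0732 to 0.168). It was also lost without the filter (adjusted p = 0.0753), with no sex term (0.212), with mouse number as a block (0.0521) and with CV and KO fitted alone (0.181). Nceh1, a hydrolase that frees cholesterol from its esters, was at 0.44 ± 0.10 for CV minus KO (adjusted p = 0.078) and 0.41 ± 0.10 for R47H minus KO (adjusted p = 0.283). Lpcat3, an LXR target that remodels phospholipids, was at -0.34 ± 0.09 for CV minus KO (limma adjusted p = 0.127). Next by smallest p in that comparison came Lrp1 at -0.22 ± 0.08 (limma adjusted p = 0.295). Apoe followed and ran the other way, at 0.19 ± 0.08 (limma adjusted p = 0.33). Srebf1, the related factor of fatty acid synthesis and also an LXR target, was at 0.08 for CV minus KO and 0.01 for R47H minus KO. In R47H against KO 0 of 26 were called, against 0.0834% of all genes. At an unadjusted p under 0.05 (limma) 2 were higher there, Nceh1 and Scd2, and 2 lower, Gramd1b and Abcg4, against 3.53% and 2.15%. In R47H against CV 0 of 26 were called, against 0.797% of all genes. At an unadjusted p under 0.05 (limma) 5 were higher, Scd2, Pltp, Gramd1b, Cyb5r3 and Mbtps1, and 0 lower, against 7.13% and 5.24%. The largest difference was that of Scd2, a desaturase also abundant in oligodendrocytes, at 0.65 ± 0.15 (limma adjusted p = 0.123, and 0.0456 without KO mouse 3). The R47H mice also had high oligodendrocyte markers, whose part in the Scd2 difference was not tested. The median over the 26 genes was -0.06 for CV minus KO, -0.04 for R47H minus KO and 0.02 for R47H minus CV. Over all tested genes the medians were -0.02, -0.001 and 0.01.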

How the data were processed

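RNA of sorted microglia from 9 mice was measured on an Affymetrix gene array, with biotin-labelled material prepared from 2 ng of total RNA, per the labels' protocols. The authors deposited log2 values of 35556 probe sets on each array. The log2 scale was read from the values (1.31 to 13.9), and the sources used here do not give the background correction, normalization or summarization. The number of arrays limits the precision (median residual SD 0.117). Some values were identical between mice, such as Ebp at 7.66531 in KO mice 1 and 3 and CV mouse 2. Sc5d was at 7.12522 in R47H mouse 1, CV mice 1 and 2 and KO mouse 3. The source of such ties, and their effect on SE, intervals and overlap, was not tested.

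The platform annotation gave 1 symbol to 21789 probe sets, several to 1621 and none to 12146, and 1 probe set per gene was kept by highest mean. Cross-hybridisation was not checked. The 10795 of 19938 genes whose mean reached the middle of all probe sets entered 1 model of genotype and sex over all arrays (limma 3.58.1, R 4.3.3, lmFit and eBayes), leaving 5 residual degrees of freedom. Tests were two-sided with Benjamini-Hochberg adjustment over all genes tested. SE and 95% intervals come from this model, and SD is over 3 mice. The fit was first run on simulated data, with a pass rule set at differences larger than those of every sterol gene but Ch25h. Recovery at smaller sizes was not part of that rule. Permuting 3 against 3 mice gives no p under 0.1. The genes, lists and motifs were chosen with earlier results of these data known. The text names all 31 listed genes, with values per mouse for those at an unadjusted p under 0.05 or an adjusted p under 0.25 in any comparison and for others singled out after their values were seen, up to 6 other pathway genes per comparison by smallest p, and Srebf1 after its value was seen. The 17 alternatives covered filters, probe sets, sex, mouse number, groups fitted, eBayes options, quantile normalization and leaving out each array.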

Additional observations from a re-analysis of the deposited data

How the results depend on the processing

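Differences followed gene by gene kept their direction under each of the 17 alternatives that gave a value, and Ch25h, Cyp51, Hmgcs1, Mvk and Abcg4 have none under the stricter filter (75th percentile). The median over the sterol genes was 0.05 under the stricter filter for CV minus KO and 0.06 without the filter for R47H minus KO, and for R47H minus CV it ran from -0.07 to 0.04. The number of sterol genes called in CV minus KO, 1, became 0 with no sex term or with the compared genotypes alone, and 2 without the filter (Ch25h and Idi1) or with the trend and robust options (Ch25h and Insig1). It ran from 0 to 2 over the removal of single mice. For R47H minus KO it stayed at 0 over those removals and became 1, Ch25h, with mouse number as a block. Mouse numbers were not taken as pairs, since the labels name no shared litter or day and not every mouse correlated best with its own number. Deviations correlated at -0.04 to 0.36 between same-numbered mice of different genotypes and at -0.39 to 0.21 between different-numbered ones. Each R47H mouse correlated best with its own number among CV mice (0.33, 0.20 and 0.20), while KO mice 2 and 3 did not. With mouse number as a block Ch25h in R47H minus KO was 0.91 (limma adjusted p = 0.0441), and the genes called over all were 136 for CV minus KO and 11 for R47H minus KO. For R47H minus CV 0 sterol genes were called under every alternative. The count for any genotype difference (limma F-test), 1, became 0 with the stricter filter or no sex term, and ran from 0 to 1 over single mice.

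Over all genes, the 131 called in CV minus KO became 77 with no sex term and 54 with the compared genotypes alone, and ran from 59 to 172 over single mice. The 9 in R47H minus KO became 3 with no sex term, 1 with the compared genotypes alone and 15 with the trend and robust options, and ran from 0 to 7. The 86 in R47H minus CV became 48 without the filter and 9 with the stricter one, and ran from 9 to 132. Removing arrays leaves fewer residual degrees of freedom, and the cause of the other shifts was not tested. Low values limit Idi1, Lss, Nr1h3 and Stard4, where arrays can compress differences.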
